A study of Mus musculus with 3 samples.

Results

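The 8 genes described here encode the IκB kinases and their closest partners: Chuk, Ikbkb and Ikbkg of the IKK complex, the IKK-related kinases Ikbke and Tbk1, and the adaptors Tank, Tbkbp1 and Azi2. They were taken by gene name from the GENCODE M21 annotation, and all 8 were found among its 55536 genes, of which 22028 are protein-coding. Together they have 81 annotated transcripts. All 8 reached at least 1 TPM in each library (TPM, is abundance per unit of length with an equal sum for each library). Over all protein-coding genes, 44.0% did so.

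Chromatin-associated RNA was taken from macrophages that had been grown out of the bone marrow of C57BL/6J mice. It was depleted of ribosomal RNA and sequenced in 3 libraries. All share 1 treatment. The cells received Lipid A, the membrane anchor of lipopolysaccharide and a ligand of the receptor TLR4, at 100 ng/ml for 12 h, spent 12 h after washout, and were given 100 ng/ml again for 25 min. No sample without Lipid A was analysed here, so the values are levels in this state and not responses to it. The libraries are numbered as biological replicates, carry 1 donor identifier and started from 1 µg, 250 ng and 500 ng of RNA. Replicate and starting amount cannot be told apart, and nothing in the labels ties the replicates to separate animals, so the spread may be technical in part.

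IKKα (from Chuk) and IKKβ (from Ikbkb) are kinases that are held together by the scaffold NEMO (from Ikbkg). IKKβ phosphorylates IκBα after TLR4 is engaged, which frees NF-κB, while IKKα also acts on the p100 precursor of the noncanonical pathway. TBK1 and IKKε (from Ikbke) are relatives of these kinases that phosphorylate IRF3 and IRF7 in the interferon response. TANK, SINTBAD (from Tbkbp1) and NAP1 (from Azi2) are adaptors that bind TBK1 and IKKε through related sequences and place them in different signalling complexes.

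The libraries held 13502401, 17848798 and 17824176 expected counts on annotated genes in replicates 1, 2 and 3. The members' mean counts ran from 361 for Tbkbp1 to 24360 for Ikbke, and each exceeded 10 in every library. All 7 macrophage markers looked up were detected, with summed levels between 825 and 894 TPM. None of the 3 T cell, 3 B cell, 3 neutrophil and 3 fibroblast markers was detected in every library of the first quantification, and of 3 endothelial markers only Pecam1 was (1.61 TPM). The fibroblast marker Col1a1 had 0, 32 and 42 counts and Col3a1 0, 16 and 18, so both were absent from the counts of replicate 1. The second quantification put the T cell marker Cd3d at 12.1 TPM, where the first had 1, 0 and 1 counts. Protein-coding genes took 29.8% of all TPM in replicate 1, 26.4% in replicate 2 and 25.4% in replicate 3, so TPM was also computed against the protein-coding total (rescaled TPM). Errors are SDs over the 3 libraries (n = 3), and coordinates are those of GRCm38 (mm10).

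Ikbke was the highest of the 8 genes and Tbk1 the second highest in every library, in both quantifications. Ikbke stood at 1049, 1010 and 867 TPM in replicates 1 to 3, with a mean of 975 ± 95.9. It lies on chromosome 1 (131254343 to 131279606, minus strand) and took 64.2% to 69.8% of the TPM of the 8 genes. By mean TPM it ranked 6 among protein-coding genes, and by CPM (counts scaled to the library total, with no division by length) it ranked 22. Each deposited credibility interval belongs to the posterior mean TPM, a second estimate that was lower than the TPM for Ikbke (966, 938 and 807). The intervals of replicates 1 and 2 overlapped (945 to 987 and 919 to 957 TPM), and that of replicate 3 was lower (790 to 824 TPM). Per rescaled TPM, replicate 2 was highest (3828), followed by replicate 1 (3522) and replicate 3 (3418).

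Tbk1 (chromosome 10, 121546455 to 121586787, minus strand) stood at 197, 133 and 122 TPM, with a mean of 151 ± 40.3. Its interval in replicate 1 (168 to 197 TPM) was above those of replicates 2 (118 to 135) and 3 (110 to 126). Replicate 1 was also highest per rescaled TPM, at 660 against 504 and 481. Ikbke was therefore 5.33, 7.60 and 7.10 times as high as Tbk1 in replicates 1 to 3.

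**Figure D1:**
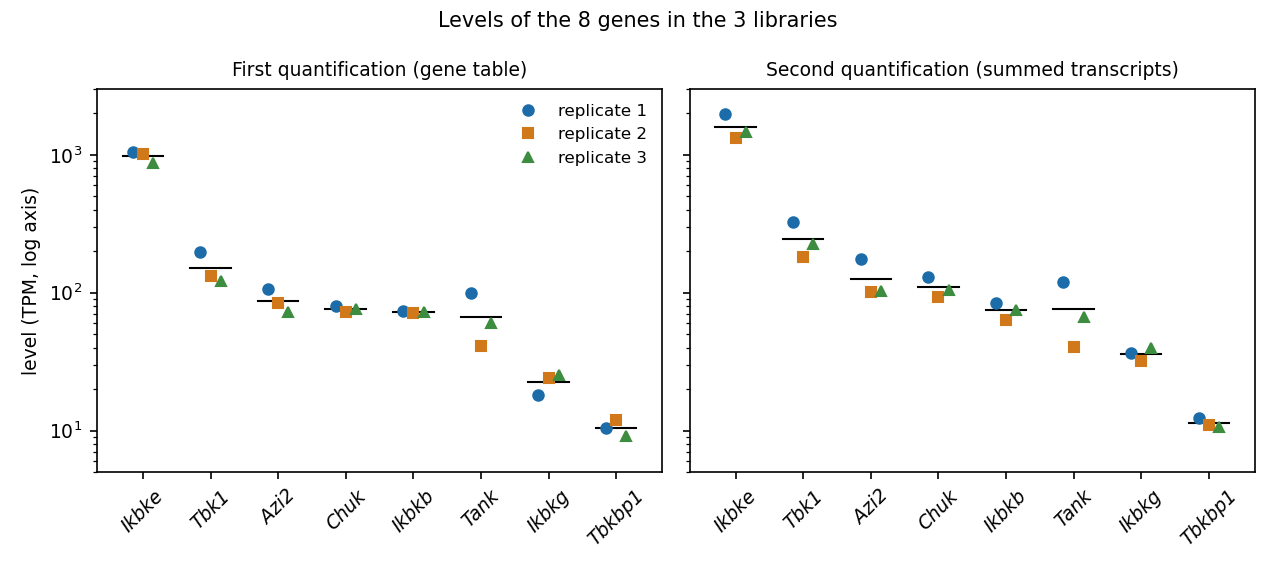
TPM on a log axis of each gene in each library (points) and the mean of 3 libraries (line), in the first and the second quantification. Ikbke and Tbk1 lead and Ikbkg and Tbkbp1 come last in both panels, while the 4 genes between them lie close together and Tank is spread from 41.0 to 98.7 TPM in the first quantification.

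The kinase subunits of the IKK complex were close to each other in the first quantification, and how they compare depends on the scale. Chuk (chromosome 19, 44073335 to 44107480, minus strand) stood at 80.6, 72.7 and 75.8 TPM, with a mean of 76.4 ± 4.0. Ikbkb (chromosome 8, 22659212 to 22706589, minus strand) stood at 73.8, 71.1 and 71.8 TPM, with a mean of 72.3 ± 1.40. Chuk was 1.09, 1.02 and 1.06 times as high as Ikbkb, and within each gene the deposited intervals of all 3 libraries overlapped. In the second quantification Chuk exceeded Ikbkb by 0.55 ± 0.07 on the log2(TPM + 1) scale (1.46-fold), and per TMM-scaled CPM, with no division by length, it was lower, at -0.62 ± 0.15. The scaffold gene Ikbkg (chromosome X, 74393290 to 74453854, plus strand) was lower, at 18.1, 24.0 and 25.5 TPM and a mean of 22.5 ± 3.94. Ikbkb was thus 4.09, 2.96 and 2.82 times as high as Ikbkg. Ikbkg overlaps G6pdx on the opposite strand over 19712 bases of the gene, and the sources used here do not give the strand setting of the counting, so reads of the shared stretches cannot be told apart.

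The adaptor genes differed most in how far the libraries lay apart. Azi2 (chromosome 9, 118040499 to 118069794, plus strand) stood at 107, 84.4 and 72.1 TPM, with a mean of 87.7 ± 17.4. Tank (chromosome 2, 61578585 to 61654171, plus strand) stood at 98.7, 41.0 and 60.4 TPM, with a mean of 66.7 ± 29.4. Its 3 deposited intervals were all apart from each other. Tbkbp1 (chromosome 11, 97136171 to 97151495, minus strand) was the lowest member in every library, at 10.4, 11.9 and 9.14 TPM and a mean of 10.5 ± 1.40. For Tbkbp1 the order of the libraries depends on the scale, since TMM-scaled CPM was lowest in replicate 1 (16.8, against 25.6 and 23.5), where its mean effective length was also lowest (1775 bases against 2212 and 2608).

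From replicate to replicate the order of the outer genes was fixed, and that of Azi2, Chuk, Ikbkb and Tank was not. Azi2 was above Chuk in replicates 1 and 2 and below it in replicate 3, and Tank was above Chuk and Ikbkb in replicate 1 and below both in replicates 2 and 3. Among these 4 the ranges over libraries overlapped between each pair of neighbours by mean. The ranges of Ikbke, Tbk1, Ikbkg and Tbkbp1 overlapped with those of no other member.

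The members were compared within each library by 6 differences on the log2(TPM + 1) scale, a scale that understates differences of low genes. Ikbke exceeded Tbk1 by 2.71 ± 0.27 (6.57-fold), with a range from 2.41 to 2.92. Tbk1 exceeded Ikbkb by 1.02 ± 0.34 (2.02-fold), and Tank exceeded Tbkbp1 by 2.48 ± 0.72 (5.56-fold). Chuk minus Ikbkb came to 0.08 ± 0.05, Ikbkg minus Ikbkb to -1.65 ± 0.28 and Tank minus Azi2 to -0.46 ± 0.49. Each difference had the same sign in 3 of 3 libraries. The exact two-sided sign-flip test gave p = 0.25 for each (0.25 also after Benjamini-Hochberg adjustment over the 6), which is the smallest that 3 libraries allow, so no difference could reach 0.05. Tank minus Azi2 shrank to -0.18 without replicate 2, and without length division Tbk1 minus Ikbkb shrank to 0.16 and Chuk minus Ikbkb turned to -0.62.

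Much of the signal of the kinase genes was assigned to transcripts annotated as retained introns. These are short or partial models that keep intron sequence, and each of the 24 such models of the 8 genes holds intron bases of the gene's main coding transcript. Only 2 of the 24 hold a whole intron, namely Ikbke-206 and Ikbkb-211. The share of a gene's TPM in this class was 73.8% ± 4.68 for Chuk, 64.0% ± 4.01 for Ikbkb, 62.9% ± 3.67 for Ikbke, 47.3% ± 5.02 for Tbk1, 44.9% ± 3.47 for Azi2 and 8.15% ± 3.49 for Ikbkg. Tank and Tbkbp1 have no model of this class. In the second quantification the shares were 87.0% ± 2.23, 68.1% ± 4.18, 67.2% ± 1.70, 42.7% ± 3.99, 49.5% ± 2.68 and 6.89% ± 2.21 in the same order.

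**Figure D2:**
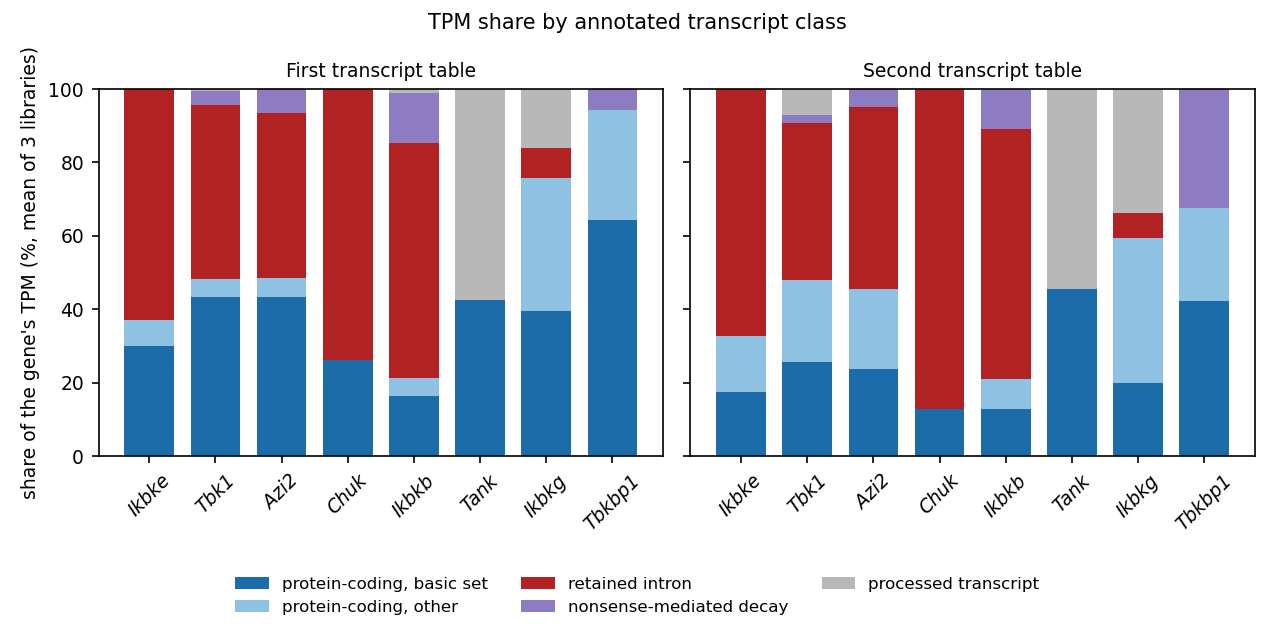
Share of each gene's TPM (percent, mean of 3 libraries) by annotated transcript class, in the first and second transcript tables. The retained-intron class (red) makes up 73.8% of Chuk and 62.9% of Ikbke in the first table, and Tank and Tbkbp1 have no transcript of that class.

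Set against other genes, these shares were ordinary for Tbk1 and Azi2 and toward the upper end for Chuk. Over 5052 genes that have both transcript types and a mean of at least 5 TPM, the median share was 45.9% in the first table, with quartiles of 30.5% and 60.7%. A share of at least 50% of the mean TPM was reached by 42.7% of these genes in the first table and 41.9% in the second. Of the 6 members with such a model it was reached by 3 and 4, respectively. The member that crossed the line was Azi2, at 50.02% of the mean TPM in the second table. For Chuk, 90.7% of the genes had a lower share in the first table and 98.1% in the second. For Ikbkb it was 79.4% and 84.0%, for Ikbke 78.1% and 83.3%, and for Ikbkg 3.25% and 2.22%.

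The class shares depend on length, because TPM divides reads by the length of a transcript. By expected counts, the retained-intron class held 50.04% ± 6.70 of Chuk, 61.5% ± 4.22 of Ikbkb and 43.5% ± 5.22 of Ikbke. It held 12.4% ± 1.68 of Tbk1, 11.5% ± 1.69 of Azi2 and 1.42% ± 0.52 of Ikbkg. Thus the class fell to a minor part of Tbk1 and Azi2, whose models of this kind are short (466 to 943 bases), and stayed large for Ikbkb, whose leading model Ikbkb-211 is 4845 bases long. For Azi2 this holds for the label only. Azi2-207, labelled as coding, has 1309 of its 2499 bases in intron 7 and held 30.8% of Azi2 counts. All models with more than 20% intron bases held 43.4% of Azi2 counts and 6.12% of Tbk1 counts. This cutoff leaves out Tbk1-207, which has 18.6% intron bases and held 6.32% of Tbk1 counts.

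Ikbke has 7 annotated transcripts, and its intron-bearing models are spread along the gene. Ikbke-201, the full-length coding transcript of 3251 bases, was even across libraries at 259, 257 and 259 TPM. Ikbke-205 (797 bases, of which 323 in intron 7) stood at 190, 261 and 144 TPM. Ikbke-207 (741 bases, of which 294 in intron 10) stood at 207, 202 and 215 TPM. Ikbke-203 (911 bases, of which 500 in introns) stood at 202, 125 and 99.1 TPM. Ikbke-206, of 5856 bases, holds introns 17 to 19 whole and stood at 81.4, 70.4 and 50.1 TPM. In TPM of the first table the coding transcript and Ikbke-207 thus varied little between libraries, whereas Ikbke-203 was highest in replicate 1 and lowest in replicate 3. This evenness holds for TPM only, since protein-coding genes took 29.8%, 26.4% and 25.4% of all TPM in replicates 1 to 3. Against that total, Ikbke-201 and Ikbke-207 would both rise from replicate 1 to replicate 3. In the second table Ikbke-201 stood at 230, 185 and 195 TPM and Ikbke-207 at 511, 398 and 497, so there both were highest in replicate 1.

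The boundaries at which these models leave the coding transcript are shown for the 3 highest retained-intron models of Ikbke and the highest one of Chuk and of Tbk1, by mean TPM of the first table. Each sequence is read 5′ to 3′ along the gene from the GENCODE M21 models and the intron, on the minus strand of GRCm38, with 20 exon bases in lower case and 20 intron bases in capitals. In the order printed they lie at chr1:131272199-131272238, chr1:131270231-131270270, chr1:131265931-131265970, chr1:131259162-131259201, chr19:44081926-44081965 and chr10:121554005-121554044.
Ikbke-205, end of intron 7: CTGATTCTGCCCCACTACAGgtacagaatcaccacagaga
Ikbke-207, end of intron 10: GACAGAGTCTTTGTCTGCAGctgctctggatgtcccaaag
Ikbke-203, end of intron 13: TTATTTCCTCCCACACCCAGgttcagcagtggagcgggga
Ikbke-203 and Ikbke-206, start of intron 18: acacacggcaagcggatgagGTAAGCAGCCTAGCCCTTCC
Chuk-207, start of intron 16: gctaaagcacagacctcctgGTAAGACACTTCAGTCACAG
Tbk1-207, end of intron 13: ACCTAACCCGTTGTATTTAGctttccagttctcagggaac

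Each of the 17 distinct intron starts held by retained-intron models of the 8 genes begins with GT, and each of the 14 distinct intron ends closes with AG, the usual letters of splice sites. Only boundaries with 20 bases held on either side were counted. They are annotated introns of each gene's main coding transcript, so the letters describe the annotation and not the reads. All of the exons that adjoin these introns hold coding sequence.

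**Figure D3:**
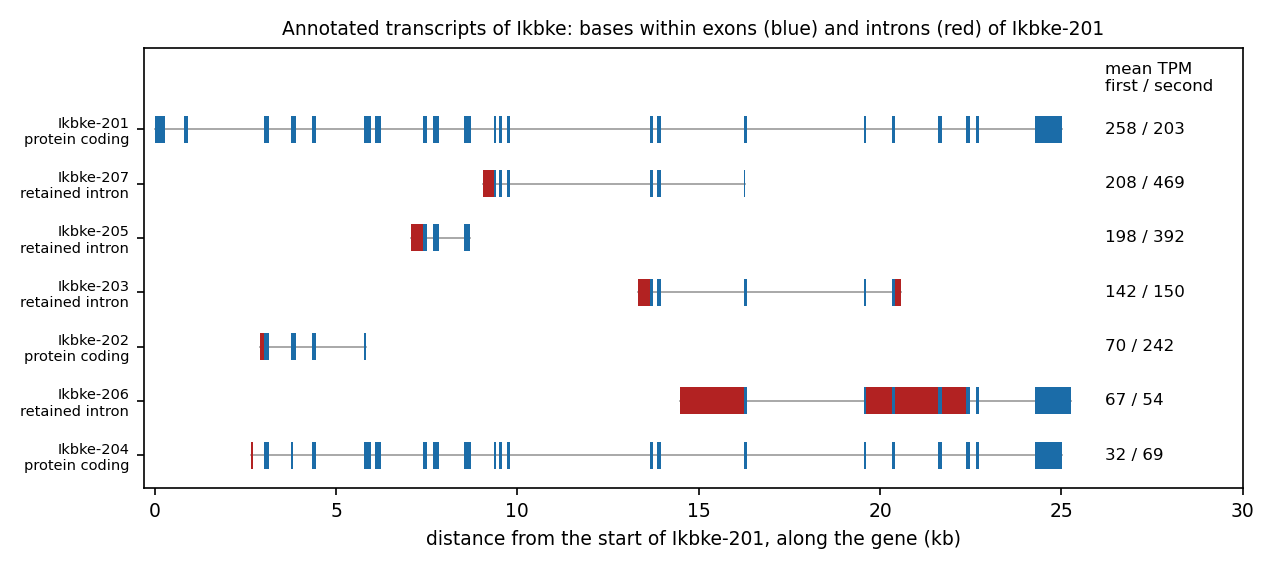
Annotated transcripts of Ikbke by distance (kb) from the start of Ikbke-201, with exon bases of Ikbke-201 in blue and its intron bases in red, and the mean TPM of each transcript in the first and second tables at the right. Retained-intron models lie in the middle and at the far end of the gene, and the second table gave more TPM to Ikbke-207 and Ikbke-205 and less to Ikbke-201.

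The 2 quantifications divided Ikbke differently among these models. The second table gave Ikbke a mean of 1580 ± 341 TPM, which is 1.62 times that of the first. It put Ikbke-207 at 469 TPM and Ikbke-205 at 392 TPM, against 208 and 198 in the first table, and Ikbke-201 at 203 against 258. The short coding model Ikbke-202 (549 bases, of which 135 in intron 2) stood at 242 TPM there against 69.5, and the coding Ikbke-204 at 68.9 against 31.7. All 8 members had a higher mean in the second table, and the median ratio over 7091 protein-coding genes was 1.29, so a ratio above 1 was usual. For Ikbke, 73.2% of those genes had a lower ratio. The antisense genes Gm28913 (102 TPM) and Gm28914 (35.2 TPM) overlap the later part of Ikbke over 3420 and 1047 bases, in the region of Ikbke-203, Ikbke-206 and, for Gm28913, the last exons of Ikbke-207. Their part in the levels of these models was not tested.

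Restricting the genes to coding transcripts of GENCODE's basic set, a choice made after seeing the data, left Ikbke at 287, 294 and 289 TPM in replicates 1 to 3. That is 290 ± 3.74 in the first table and 272 ± 22.8 in the second, so here the tables were close. The gap of replicate 3 in total Ikbke TPM lay mostly in the retained-intron class, at 681, 657 and 509 TPM. Against the protein-coding total, the basic coding part would not be even but would rise from replicate 1 to replicate 3. By basic coding TPM Ikbke ranked 11 of 7082 genes in the first table and 13 in the second.

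The same restriction set the other kinases further apart. Tbk1 kept 63.7 ± 7.94 TPM, Chuk 19.9 ± 3.16 and Ikbkb 11.8 ± 3.54. Ikbkb stood at 8.17, 12.0 and 15.2 TPM and Chuk at 17.4, 18.8 and 23.5, so both were lowest in replicate 1 of the first table. In the second table both were lowest in replicate 2, at 6.75 TPM for Ikbkb and 12.2 for Chuk. On the log2 scale Tbk1 exceeded Ikbkb by 2.37 ± 0.55, against 1.02 for the whole genes, and Ikbkg minus Ikbkb came to -0.35 ± 0.37, against -1.65. Chuk minus Ikbkb was 0.74 ± 0.23. Ikbke minus Tbk1 was smaller than for the whole genes, at 2.18 ± 0.19 (4.52-fold) against 2.71 (6.57-fold). Among the adaptors Azi2 kept 37.6 ± 4.38, Tank 28.4 ± 12.5 and Tbkbp1 6.69 ± 1.47 TPM. The basic set still includes models with more than 20% intron bases. Azi2-207 made up 17.6 ± 1.85 TPM of Azi2, and Ikbkb-202, with 942 of 3977 bases in intron 21, 3.00 ± 0.85 TPM of Ikbkb. The exact sign-flip p was 0.25 for each difference in the first table.

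**Figure D4:**
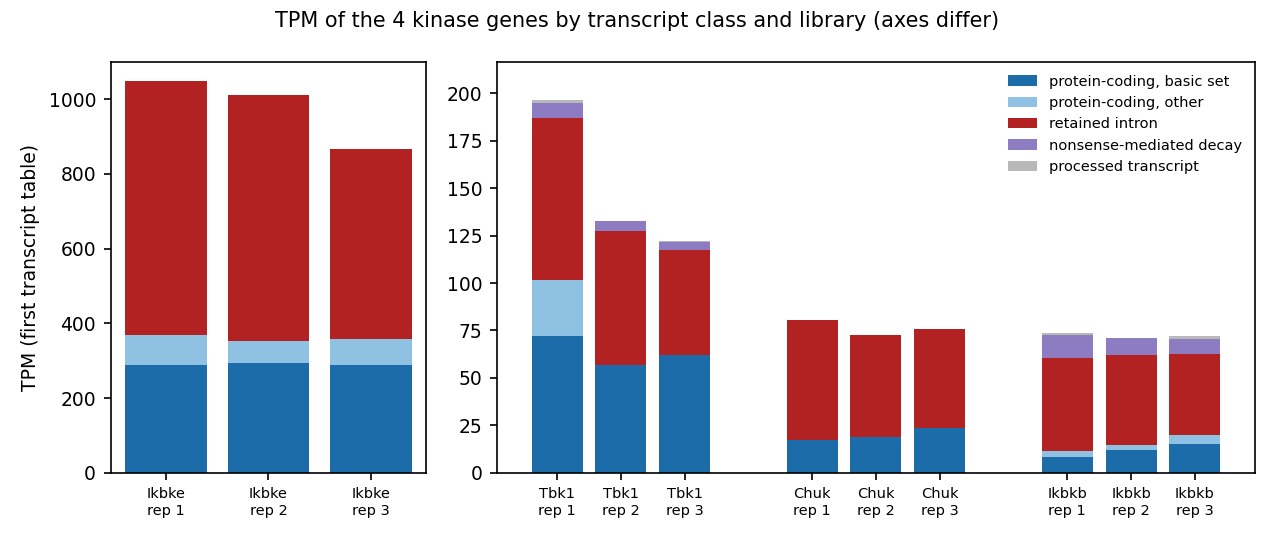
TPM of Ikbke (left) and of Tbk1, Chuk and Ikbkb (right, another scale) in each library of the first table, stacked by transcript class. The basic coding part of Ikbke stays between 287 and 294 TPM while its retained-intron part runs from 509 to 681 TPM.

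The coding transcript Tbk1-201 led Tbk1 in the first table in all 3 libraries, with 43.4% ± 7.09 of its TPM and 79.6% of its counts. It stood at 72.3, 56.7 and 62.1 TPM. A short coding model, Tbk1-206 of 442 bases, was at 29.0 TPM in replicate 1 and listed at 0 in replicates 2 and 3. The second table put it at 94.0, 18.8 and 62.6 TPM, above Tbk1-201 in replicates 1 and 3. In the first table its value in replicate 1 rests on 91.2 expected counts, and its deposited interval there (14.7 to 39.7 TPM) lay above those of replicates 2 and 3.

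By mean share, 3 of the 8 genes had the same leading transcript in both tables (Tbk1-201, Tank-207 and Azi2-206), while 52.4% of 6808 protein-coding genes did. Ikbke was led by Ikbke-201 (26.7% ± 2.83) in the first table and Ikbke-207 (30.1% ± 4.14) in the second. Chuk was led by Chuk-207 (33.2% ± 3.96) and then Chuk-205 (22.7% ± 1.74), both retained-intron models. Ikbkb was led by Ikbkb-211 (16.6% ± 2.62) and then Ikbkb-209 (17.0% ± 1.30), likewise of that class. Ikbkg was led by the short coding model Ikbkg-216 and then by Ikbkg-213, a processed transcript. Tbkbp1 was led by the coding Tbkbp1-205 (32.7% ± 5.68) and then by Tbkbp1-202 (32.3% ± 2.61), a model annotated for nonsense-mediated decay. A lead by mean share often did not hold in each library. Tbkbp1-205 led no library of the first table, where Tbkbp1-206 led replicate 1 and Tbkbp1-201 replicates 2 and 3. In the second table Chuk-207 still led Chuk in replicates 1 and 3, and Tbk1-201 led Tbk1 in replicate 2 only.

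By annotation class, Tank differed from the kinases in that all of its TPM outside the basic coding class lay in processed transcripts, a class without a coding frame. These models also hold intron bases, 1342 of 1535 in Tank-207 and 476 of 832 in Tank-211. Models with more than 20% intron bases held 56.9% of Tank TPM in the first table. They held 29.1% of Tbk1, 70.1% of Ikbke, 73.8% of Chuk and 74.0% of Ikbkb. The value of Tbk1 leaves out Tbk1-207, with 18.6% intron bases and 18.7% of Tbk1 TPM. The processed-transcript class held 57.4% ± 1.27 of Tank TPM in the first table and 54.3% ± 0.48 in the second. Tank-207, the leading model of 1535 bases, stood at 31, 12.0 and 14.6 TPM. The class shares were steady although the gene was not. Basic coding transcripts stood at 41.7, 17.0 and 26.5 TPM and processed transcripts at 57.0, 24.0 and 33.8 TPM, so both classes followed the gene's order of libraries.

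Between the 3 libraries Tank varied most, and Ikbkb and Chuk were among the steadiest. Per TMM-scaled CPM, Tank lay 0.65 above its log2 mean in replicate 1, at -0.64 from it in replicate 2 and at -0.01 in replicate 3. Its highest library was 2.13 times its lowest per rescaled TPM. A ratio of at least 2 was reached by 1 of the 8 members and by 10.8% of the detected protein-coding genes. The biological coefficient of variation (BCV) estimated by edgeR was 0.268 for Tank, 0.163 for Ikbkb and 0.168 for Chuk, with a median of 0.203 over the 14193 genes kept. For Tank it was 0.177 without replicate 1, 0.196 without replicate 2 and 0.227 without replicate 3, against medians of 0.165, 0.207 and 0.240. These values do not measure how far its libraries lie apart. Without replicate 3 the pair left was the most distant one (143 and 58.5 TMM-scaled CPM), yet the estimate lay below the median. Azi2 (0.173), Ikbkg (0.174), Tbk1 (0.175) and Ikbke (0.179) lay below that median, and Tbkbp1 (0.203) lay at it. These estimates are drawn strongly toward the trend of all genes and understate the spread of a gene that varies more than the rest. The plain SD of log2 rescaled TPM was 0.55 for Tank, 0.38 for Ikbkg and 0.25 for Tbk1. It was 0.10 for Ikbkb, 0.08 for Ikbke and 0.08 for Chuk, with a median of 0.24 over detected protein-coding genes. This SD also differs from the BCV in scale, since TPM divides by length and the BCV rests on counts. Per TMM-scaled CPM, Ikbkg lay at -0.12, 0.07 and 0.05 from its log2 mean in replicates 1 to 3. Its mean effective length was 2763, 2227 and 2026 bases in the same order. Its SD of 0.38 is thus not a spread of its counts, and the part of length in it was not tested.

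**Figure D5:**
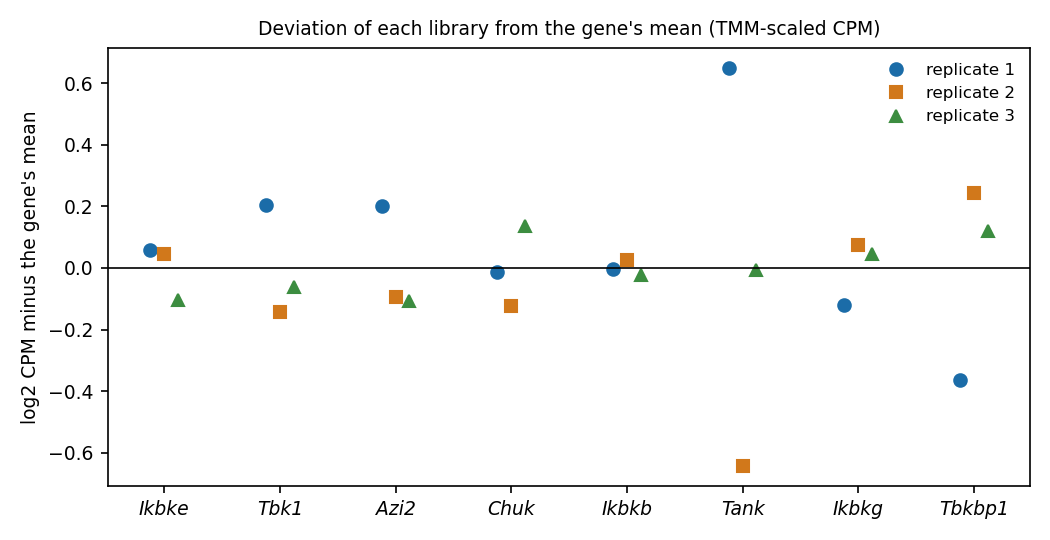
Log2 of TMM-scaled CPM in each library minus the gene's mean over the 3 libraries. Tank runs from 0.65 above its mean in replicate 1 to -0.64 from it in replicate 2, and Ikbkb stays within 0.03 of its mean.

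Genes with a level pattern most like that of a kinase were sought by Euclidean distance on the log2(TPM + 1) scale over the 3 libraries. For Ikbke they were Fyb (0.06), Rnf213 (0.26) and Hnrnpa2b1 (0.34). For Tbk1 they were Sp140 (0.08), Fabp5 (0.11) and Gvin1 (0.17). For Chuk they were Znrf1 (0.04), Slc11a2 (0.06) and Ddx50 (0.07), and for Ikbkb they were Mtss1 (0.06), Dhrs3 (0.07) and Kmt2c (0.08). With 3 libraries such likeness is common, since 228 genes lay within 0.5 of Chuk, 257 of Ikbkb, 85 of Tbk1 and 5 of Ikbke.

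Genes that act before and after these kinases were all detected. None reached the level of Ikbke, but few genes of any list could, since Ikbke ranked 6 among protein-coding genes. Over all protein-coding genes 44.0% were detected, and the lists were chosen with earlier results of these data known. Of the 14 genes upstream of IKK, all 14 were detected, with a median of 25.9 TPM. Rbck1 (61.4 ± 10.5) and Rnf31 (48.4 ± 2.13), of the complex that builds linear ubiquitin chains, and Tab2 (57.1 ± 11.0), a partner of the kinase TAK1, were highest, and Tab3 was lowest (4.16 ± 1.04). Of the 8 genes upstream of TBK1, all 8 were detected, with a median of 8.77 TPM. There the RNA sensor genes Ddx58 (203 ± 73.4) and Ifih1 (86.9 ± 29.6) stood above the adaptor Ticam2 (13.3 ± 2.30), and Tmem173, which encodes STING, was lowest (4.90 ± 1.56). For comparison, the median over detected protein-coding genes was 11.0 TPM.

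Targets of the kinases were all detected too, beside the same 44.0% over all protein-coding genes. The 7 substrates of IKK had a median of 39.7 TPM. Nfkbia, which encodes IκBα, led them at 268, 157 and 282 TPM, ahead of Nfkb1 (72.0 ± 7.75) and Irf5 (46.1 ± 5.53), and Nfkbib was lowest (13.2 ± 4.99). The 6 substrates of TBK1 and IKKε had a median of 48.7 TPM and were led by the autophagy receptor gene Sqstm1 (380 ± 113), Irf7 (315 ± 87.6) and Irf3 (71.6 ± 17.6). Their lowest was Tmem173 (4.90 ± 1.56), which, like Mavs, is also among the genes upstream of TBK1. Of the 9 brakes and chaperones of the kinases, the deubiquitinase gene Tnfaip3 was highest (194 ± 73.5), followed by its partner Tnip1 (52.6 ± 5.22) and the chaperone gene Hsp90ab1 (45.01 ± 5.45). Sike1, whose product binds IKKε and TBK1, was lowest at 15 ± 1.79.

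Sequence shared with other genes was limited. Of the distinct 31-base words in the members' transcripts, between 0% (Tank, Tbkbp1) and 5.81% (Ikbkg) also occur in transcripts of other genes on either strand, and none is shared between members. RefSeq promoter windows (250 bases before to 50 after the start, GRCm38.p6) were matched for 7 of the 8 genes, with 14 windows in all. A κB site searched as GGGANNTTCC on both strands was in 0 of the 14 and in 1.47% of 32851 windows. An interferon-stimulated response element searched as GAAANNGAAA was in 0 of the 14 and in 3.44% of all windows. The absence of these letters says nothing of factors that bind elsewhere or at variants of the motifs.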

How the data were processed

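Tables of 3 RNA-seq libraries of 1 condition were used. Per the file headers, the authors deposited a gene table and a first transcript table with expected counts, TPM, posterior mean TPM, credibility bounds (a signal on the TPM scale, level not stated), effective length and the percent of a gene's TPM per transcript. The other transcript table gives estimated counts and TPM, per the file headers. Column names are those of RSEM and kallisto. Per the notes deposited beside the files, the build is mm10 with GENCODE M21. No aligner, program version or strand setting is given in the sources used here, so antisense overlaps are uncertain.

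Rows outside GENCODE M21 (1.75%, 0.396% and 0.239% of counts in replicates 1 to 3) were left out. A count of 0 allows up to 3 counts, or 0.222, 0.168 and 0.168 CPM, which covers counting error only. Transcript TPM of the second table were summed per gene. Shares recomputed from TPM differed from the deposited percent values by at most 0.0478 percentage points. The pseudocount was 1. Within-library differences were tested by exact sign flips. Expected counts were rounded for edgeR 4.0.16 (R 4.3.3), with filterByExpr, TMM and an intercept-only dispersion. On simulated counts this recovered the dispersion of most genes but fell far short for genes made more variable than the rest, so the SD of log2 rescaled TPM was added after seeing the data. DESeq2 1.42.0 gave alternative size factors. Other steps ran in Python 3.11.15 with scipy 1.17.1, pandas 2.3.3, numpy 2.4.6 and, for figures, matplotlib 3.10.9.

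All 8 members are named, with the 3 highest and the lowest gene of each pathway list and the 3 nearest genes of 4 kinases. The members, lists and differences were chosen with earlier results of these data known. Alternatives were the second table, posterior mean TPM, rescaled TPM, TMM CPM, a pseudocount of 0.1, other filters, shares of counts and leaving out each replicate.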

Additional observations from a re-analysis of the deposited data

How the results depend on the processing

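Of 54 recomputed within-library differences, 52 kept the sign of their mean and 2 turned: Chuk minus Ikbkb was -0.62 with TMM CPM, which does not divide by length, and Tank minus Azi2 was 0.12 with basic protein-coding transcripts of the second table (the cause was not tested). With TMM CPM, the sign differed between libraries for Tbk1 minus Ikbkb and Tank minus Azi2. In basic protein-coding transcripts of the second table it differed for Ikbkg minus Ikbkb and Tank minus Azi2. With 2 libraries the smallest p is 0.5, so leaving 1 out bears on size only. Tank minus Azi2 then ran from -0.64 to -0.18 and Ikbke minus Tbk1 from 2.61 to 2.87. In basic protein-coding transcripts Ikbke minus Tbk1 was lower, at 2.18 in the first table and 2.15 in the second. Of 48 recomputed levels 16 moved by more than 1 SD, 8 of them by the rescaling itself and 6 in the second table, and of 30 retained-intron shares 9 moved, 5 of them under the share of counts. Counts of members kept within 1.5 times in 11 of 11 settings, a wide margin for 8 genes. The members detected stayed at 8. Those with a BCV below the median were 6 in the main setting and between 6 and 8 in the others. Short transcripts such as Tbk1-206 rest on few counts. No paired analysis was possible between groups because there is only 1 group, and the differences between genes are paired by library.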
